A study of Mus musculus with 8 samples.

Results

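The Hedgehog pathway was examined through 9 of its core genes, *Shh*, *Ihh*, *Ptch1*, *Boc*, *Hhip*, *Smo*, *Gli1*, *Gli2* and *Gli3*, in whole mouse embryos at E8.5. The genes were chosen by name as ligands, receptors and transcription factors of the pathway, and every probe whose RefSeq transcript belonged to one of them was kept. This gave 11 probes of the 55681 on the array, and 9 genes of the 20660 that could be named. *Hhip* and *Smo* had 2 probes each and the other genes had 1. Each of the 8 embryos had its RNA labelled with Cy3 and placed on an array of its own. All 8 embryos were wild type for *Eed*, which encodes an essential subunit of Polycomb Repressive Complex 2 (PRC2), and all had wild-type mothers. The labels give Eedl7Rn5-1989SB C57bl6/129 as the mouse strain and background, and a legend of the study names C57bl/6J females as the mothers. In one group of 4 embryos the father was *Eed* wt/wt. In the other group of 4 the father was *Eed* hypo/wt, with 1 copy of the hypomorphic Eedl7Rn5-1989SB allele, which reduces PRC2 function. The comparison asks whether the father's PRC2 gene dose, carried through sperm, is seen in Hedgehog gene expression of offspring that did not inherit the allele. Each group held 2 females and 2 males. An embryo is named below by its father's genotype and replicate number. The labels do not say which embryos share a father, and in the *Eed* wt/wt group 3 of 4 embryos share the first part of an embryo code. The legends of the study differ on the number of males. On the lower numbers some embryos of each group share a father, so the p-values and intervals measure only the spread between these embryos. The arrays of each group were on 1 slide, so slide effects and the father's genotype cannot be told apart.

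Hedgehog ligands are secreted proteins that bind the receptor *Ptch1*. Without ligand, *Ptch1* keeps the membrane protein *Smo* inactive, and the Gli transcription factors are processed to or held in repressing forms at the primary cilium. Ligand binding releases *Smo* and shifts the Gli factors towards activation, which raises *Gli1*, *Ptch1* and *Hhip* themselves, so these genes are commonly used as readouts of the pathway. In the early somite embryo *Shh* comes from the node, notochord, floor plate and gut endoderm, and *Ihh* from endoderm, including that of the yolk sac. Their signals contribute to left-right asymmetry, the neural tube, somites and vessels.

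Values are log2 processed intensities after subtracting the 75th percentile of each array, so 0 is the signal of a probe at that percentile and 1 unit is 2-fold. Levels of different probes cannot be set against each other. Between 29203 and 39530 probes were well above background on an array, and the number of arrays limits the precision. The arrays of replicate 1 with an *Eed* wt/wt father and replicate 3 with an *Eed* hypo/wt father stood apart: 35.4% and 41.7% of 1160 probes for olfactory receptors, which mark olfactory neurons, were well above background there, against 3.28% to 13.9% on the other 6. All 11 Hedgehog probes were well above background on all 8 arrays, and 0 were saturated, so all 11 were tested. Markers of the embryo proper, such as *Sox2*, *Meox1* and *Nkx2-5*, were well above background on every array at all 10 genes listed, as were 6 of the 7 node and notochord markers. *Noto*, a node gene, reached this level on 3 arrays only. All 9 yolk sac endoderm markers and all 7 primitive erythroid markers were also detected on all 8 arrays, so the RNA held extra-embryonic tissue and blood besides the embryo proper. The 7 tested genes of a decidua and trophoblast list, the decidual *Prl8a2* among them, were likewise detected on all 8 arrays. *Prl7d1* and *Tpbpa* of that list reached this level on 1 and 0 arrays. In such bulk RNA, fewer cells of a type and less RNA per cell cannot be told apart.

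The reference windows at the start sites of these genes show what their promoters share. A window of 300 bases, 250 before and 50 after a RefSeq start site on build GRCm38.p6, was given for 6 of the 9 genes, and *Shh*, *Gli1* and *Boc* had no entry. The windows were rich in C and G (67.3% to 76.3%, against a median of 52.7% over 32851 windows of all genes) and held 17 to 47 CG dinucleotides, against a median of 7. The windows with the most and the fewest CG are printed below, 5′ to 3′ on the strand of the gene, with every CG in capitals. The *Ptch1* window lies on the minus strand at chr13:63565686-63565985 and holds 47 CG, more than in 98.6% of all windows. The *Smo* window lies on the plus strand at chr6:29735247-29735546 and holds 17, more than in 68.6%. CG-rich promoters are, as background, the kind that PRC2 is known to occupy, and occupancy was not measured here.
Ptch1: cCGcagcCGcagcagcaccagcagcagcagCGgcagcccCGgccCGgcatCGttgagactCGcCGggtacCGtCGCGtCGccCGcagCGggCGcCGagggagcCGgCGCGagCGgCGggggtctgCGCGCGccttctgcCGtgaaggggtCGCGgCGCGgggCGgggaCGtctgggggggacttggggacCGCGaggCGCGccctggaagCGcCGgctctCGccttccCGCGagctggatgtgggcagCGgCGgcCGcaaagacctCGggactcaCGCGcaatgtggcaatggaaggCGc
Smo: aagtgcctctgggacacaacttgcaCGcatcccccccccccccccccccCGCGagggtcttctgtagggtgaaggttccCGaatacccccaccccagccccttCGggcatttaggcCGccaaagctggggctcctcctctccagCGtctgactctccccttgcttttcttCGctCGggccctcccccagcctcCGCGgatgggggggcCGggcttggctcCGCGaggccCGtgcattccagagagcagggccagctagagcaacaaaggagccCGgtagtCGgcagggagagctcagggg
*Ihh* and *Hhip* held 30 CG each, *Gli2* held 28 and *Gli3* held 39. The GLI binding consensus GACCACCCA, searched on both strands, was in 0 of the 6 windows, also when 1 mismatch was allowed. It was in 0.253% of all windows of this length, and in 6.74% with 1 mismatch. These windows are short, and no match says only that these letters are not in them.

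Of the 11 Hedgehog probes, 0 were called between the father groups. In limma, 0 probes reached an adjusted p under 0.01 with at least a 2-fold change, the study's cut-off, and this was so for 0 of all 33093 probes tested (0%). At an unadjusted p under 0.05 there were 0 of the 11, against 4.4% of all tested probes, and the smallest p was 0.200, for *Gli1*. The embryos of the 2 groups overlapped at all 11 probes, while they did not overlap at 3.22% of the tested probes. The median log2 fold change, *Eed* hypo/wt minus *Eed* wt/wt fathers, was 0.09 over the 11 probes and 0.00 over all tested probes, and the median size of the change was 0.10 in both. The adjusted p was 1.00 for each Hedgehog probe (limma, Benjamini-Hochberg adjustment over all 33093 probes). With the first probe taken for *Hhip* and *Smo*, 5 genes were higher in the *Eed* hypo/wt group and 4 were lower, a split that turned to 3 higher and 6 lower when arrays were aligned on their medians, or with normexp correction of the median spot signal and quantile normalization (normexp below). It went to 7 higher and 2 lower without replicate 2 with an *Eed* hypo/wt father. Aligning on medians moved the median of all tested probes to -0.10. Without the 2 arrays that stood apart, 0 of the 11 probes again had an unadjusted p under 0.05, and the 9 genes lay between -0.256 for *Ptch1* and 0.107 for *Gli1*.

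**Figure D1:**
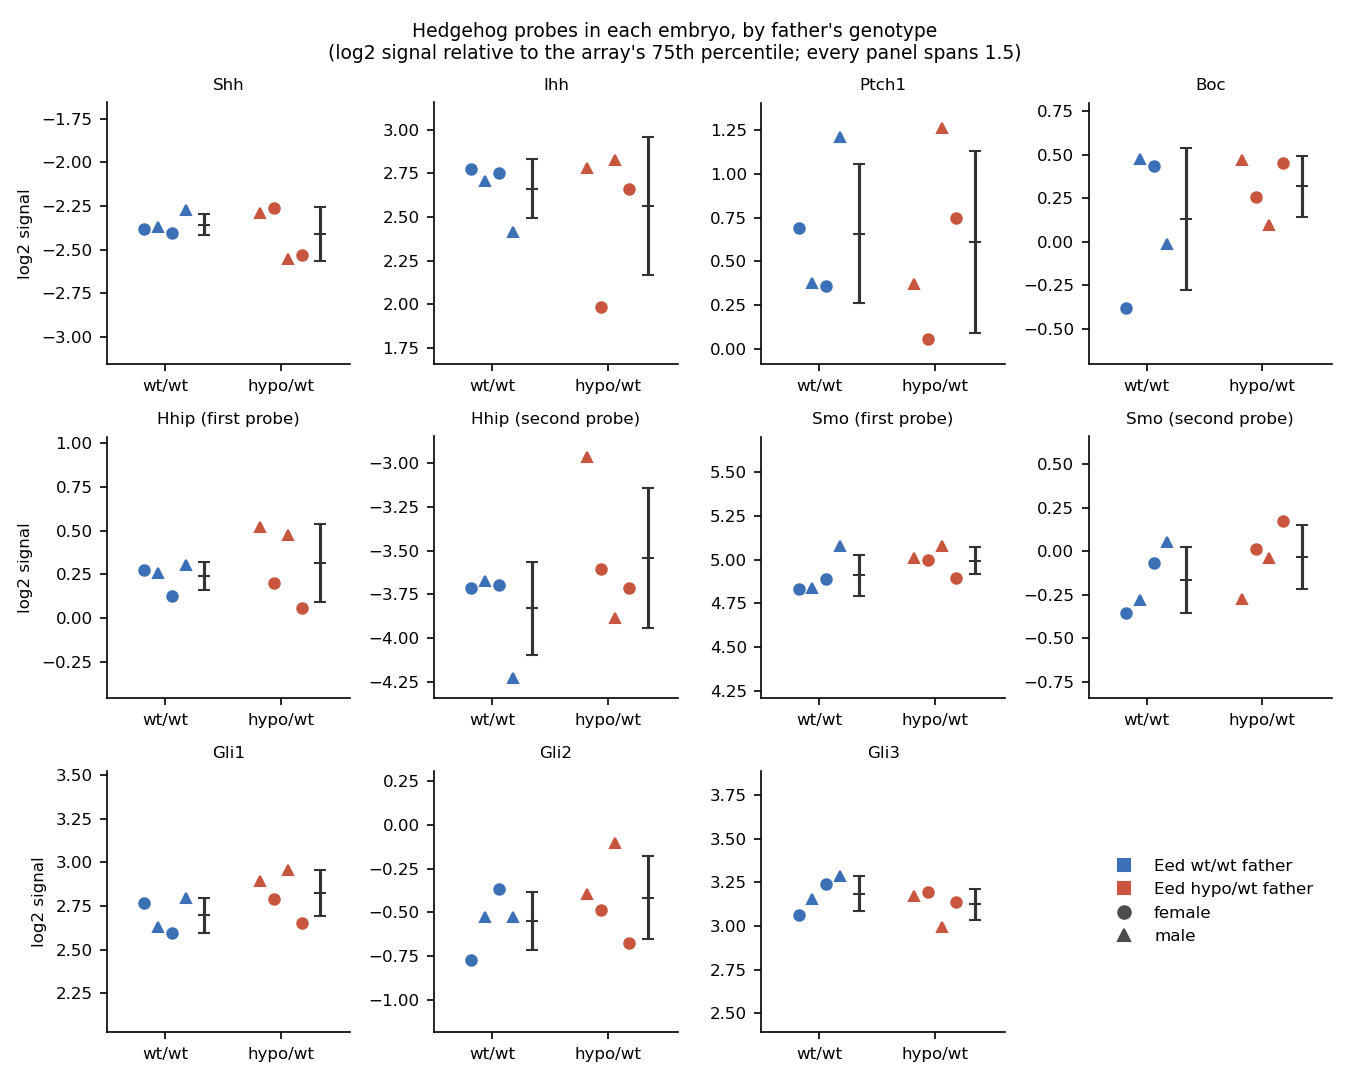
Log2 signal of each of the 11 Hedgehog probes (y axis, relative to the 75th percentile of the array) in the 8 embryos, by father's genotype (x axis). Blue and red points are embryos of *Eed* wt/wt and *Eed* hypo/wt fathers, circles are females, triangles are males, and the bar beside each group is its mean ± SD (n = 4). The 2 groups overlap in every panel, and the points spread most for *Ptch1* and the second *Hhip* probe and least for *Smo* (first probe), *Shh* and *Gli3*.

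The ligands were measured by 1 probe each. *Shh* (A_52_P49014), the ligand of notochord and floor plate, had log2 signals of -2.38, -2.37, -2.40 and -2.27 with *Eed* wt/wt fathers and -2.29, -2.26, -2.55 and -2.53 with *Eed* hypo/wt fathers, in the order of replicates 1 to 4. The second pair of embryos of *Eed* hypo/wt fathers was the lowest of the 8 and the first pair lay among the highest, so the groups overlapped. The means were -2.36 ± 0.06 (SD, n = 4) and -2.41 ± 0.15 (SD, n = 4), a log2 fold change of -0.05 (standard error 0.09, 95% interval -0.26 to 0.16), which became 0.01 with array weights. The interval runs from 0.832-fold to 1.12-fold, so a 2-fold change lies outside it.

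The *Shh* probe was printed as 10 spots on each array, which gives the error of a spot on an array, without the error of labelling and hybridisation. Of the 80 spots, 1 was marked as an outlier, in replicate 2 with an *Eed* wt/wt father, and was left out. The SD between single spots of one array ran from 0.05 to 0.19. The widest spread between spots, 0.19, was in replicate 4 with an *Eed* hypo/wt father, where single spots lay between -2.96 and -2.31. All other Hedgehog probes had 1 spot each. The *Shh* probe's residual SD in the fit was lower than that of all but 6.94% of tested probes within 1 log2 unit of its level. The *Shh* value averages 10 spots while most probes on the array had 1, so this comparison is not of like with like.

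**Figure D2:**
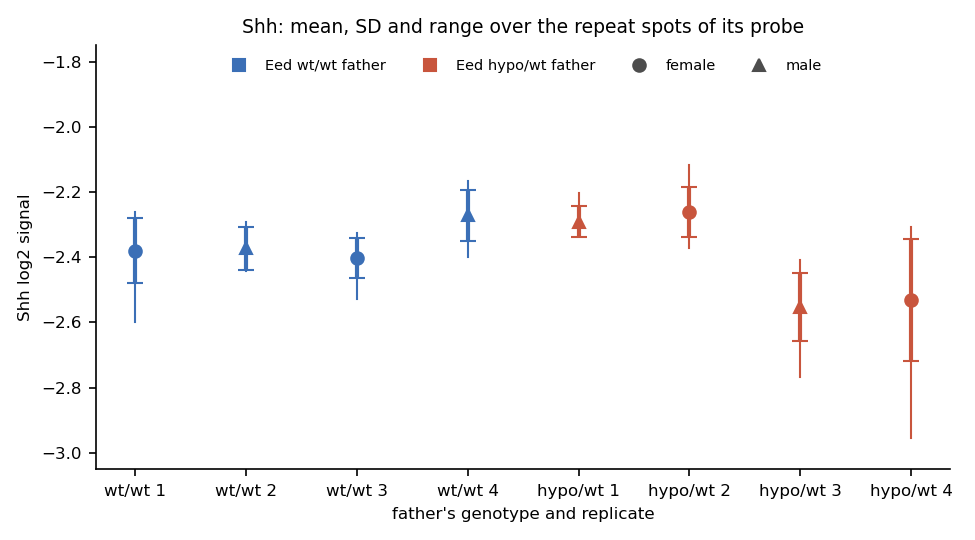
*Shh* log2 signal (y axis) in the 8 embryos (x axis, father's genotype and replicate). The marker is the mean over the spots of the *Shh* probe, the thick bar its SD between spots and the thin line the range of the spots, and replicates 3 and 4 with *Eed* hypo/wt fathers have the lowest means, at -2.55 and -2.53.

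*Ihh* (A_55_P2152225), the ligand of endoderm, measured 2.78, 2.71, 2.75 and 2.41 with *Eed* wt/wt fathers and 2.78, 1.98, 2.83 and 2.66 with *Eed* hypo/wt fathers. In each group 1 embryo lay apart below the other 3, replicate 4 with an *Eed* wt/wt father and replicate 2 with an *Eed* hypo/wt father. The means were 2.66 ± 0.17 (SD, n = 4) and 2.56 ± 0.39 (SD, n = 4), with a log2 fold change of -0.10 (standard error 0.20, 95% interval -0.56 to 0.37). Without replicate 2 with an *Eed* hypo/wt father it was 0.09. The summed linear signal of the 9 yolk sac endoderm markers, relative to the 75th percentile, was 517 in replicate 4 with an *Eed* wt/wt father, the lowest of the 8 embryos. It was 667 in replicate 2 with an *Eed* hypo/wt father, and the other 6 lay between 634 and 737. The part of yolk sac tissue in the *Ihh* values was not tested.

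*Ptch1*, the receptor of the ligands, had the largest residual SD of the 11 probes. The *Ptch1* probe (A_55_P2107292) measured 0.69, 0.37, 0.36 and 1.21 with *Eed* wt/wt fathers and 0.37, 0.06, 1.26 and 0.75 with *Eed* hypo/wt fathers. Each group held 1 embryo above 1 log2 unit, and the highest and lowest of all 8 embryos were both from *Eed* hypo/wt fathers, 2.31-fold apart. The means were 0.66 ± 0.40 (SD, n = 4) and 0.61 ± 0.52 (SD, n = 4), and the log2 fold change was -0.05 (standard error 0.30, 95% interval -0.75 to 0.65). It changed sign when a single embryo was left out, to 0.135 without either replicate 4 with an *Eed* wt/wt father or replicate 2 with an *Eed* hypo/wt father and to 0.03 without replicate 1 with an *Eed* hypo/wt father. Its residual SD was above that of 96.7% of tested probes within 1 log2 unit of its level. Since *Ptch1* is both a receptor and a target of the pathway, the ranges of the other readouts, *Gli1* and *Hhip*, are given beside it. *Gli1* differed by 1.29-fold at most over the same 8 embryos, the first *Hhip* probe by 1.38-fold and the second by 2.40-fold.

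*Boc* (A_55_P2067652), a cell-surface co-receptor that helps to present ligand to *Ptch1*, measured -0.38, 0.48, 0.43 and -0.02 with *Eed* wt/wt fathers and 0.47, 0.26, 0.10 and 0.45 with *Eed* hypo/wt fathers. All 4 embryos of *Eed* hypo/wt fathers lay within the range of the other group, whose lowest embryo was replicate 1. The means were 0.13 ± 0.41 (SD, n = 4) and 0.32 ± 0.18 (SD, n = 4), with a log2 fold change of 0.19 (standard error 0.21, 95% interval -0.29 to 0.67). Without replicate 1 with an *Eed* wt/wt father the change was 0.02.

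*Hhip*, a membrane protein that binds Hedgehog ligands and so limits their reach, was read by 2 probes of the same transcript. The first (A_55_P1969276) measured 0.27, 0.26, 0.13 and 0.31 with *Eed* wt/wt fathers and 0.52, 0.20, 0.48 and 0.06 with *Eed* hypo/wt fathers. The second group held the 2 highest embryos and the lowest. The log2 fold change was 0.07 (standard error 0.12, 95% interval -0.21 to 0.35), and it was -0.03 with arrays aligned on medians and -0.01 with normexp. The second probe (A_51_P416822) measured -3.72, -3.68, -3.70 and -4.23 with *Eed* wt/wt fathers and -2.96, -3.60, -3.88 and -3.71 with *Eed* hypo/wt fathers. The 2 probes put the embryos in different orders below the top, and both had replicate 1 with an *Eed* hypo/wt father as the highest. Its change was 0.29 on the log2 scale (standard error 0.22, 95% interval -0.23 to 0.81), the largest of the 11 in size.

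*Smo*, the membrane protein that passes the signal inward, had the narrowest range of the 11 in its first probe (A_51_P258766), 4.83 to 5.08 with *Eed* wt/wt fathers and 4.90 to 5.08 with *Eed* hypo/wt fathers. The 8 embryos were thus within 1.19-fold of each other. The log2 fold change was 0.09 (standard error 0.08, 95% interval -0.10 to 0.28), and -0.02 with arrays aligned on medians or -0.06 with normexp. The second *Smo* probe (A_55_P2121484) ran from -0.36 to 0.05 and from -0.27 to 0.17, and changed by 0.13 on the log2 scale (standard error 0.13) between the groups.

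The 3 Gli factors carry the signal to target genes. *Gli1* (A_55_P2183587), an activator whose own expression depends on the pathway, measured 2.77, 2.63, 2.59 and 2.79 with *Eed* wt/wt fathers and 2.89, 2.79, 2.96 and 2.65 with *Eed* hypo/wt fathers. The 2 highest embryos were replicates 3 and 1 with *Eed* hypo/wt fathers, and replicate 4 of that group lay among the lower embryos of the other. The means were 2.70 ± 0.10 (SD, n = 4) and 2.82 ± 0.13 (SD, n = 4), a log2 fold change of 0.13 (standard error 0.09, 95% interval -0.08 to 0.34) that ranged from 0.0221 to 0.185 over the alternatives. In folds the interval was 0.943 to 1.27.

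*Gli2* (A_52_P357829), the main activator in the early response, measured -0.77, -0.53, -0.37 and -0.53 with *Eed* wt/wt fathers and -0.40, -0.48, -0.10 and -0.68 with *Eed* hypo/wt fathers. Replicate 1 with an *Eed* wt/wt father was the lowest embryo and replicate 3 with an *Eed* hypo/wt father the highest. The log2 fold change was 0.13 (standard error 0.14, 95% interval -0.19 to 0.46). These are the 2 arrays with raised receptor signal, and without them the change was -0.04. *Gli3* (A_51_P171288), mainly a repressor, ran from 3.06 to 3.28 with *Eed* wt/wt fathers and reached at most 3.19 with *Eed* hypo/wt fathers, and its log2 fold change was -0.06 (standard error 0.08, 95% interval -0.25 to 0.13). The 8 embryos lay within 1.22-fold of each other at *Gli3*.

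**Figure D3:**
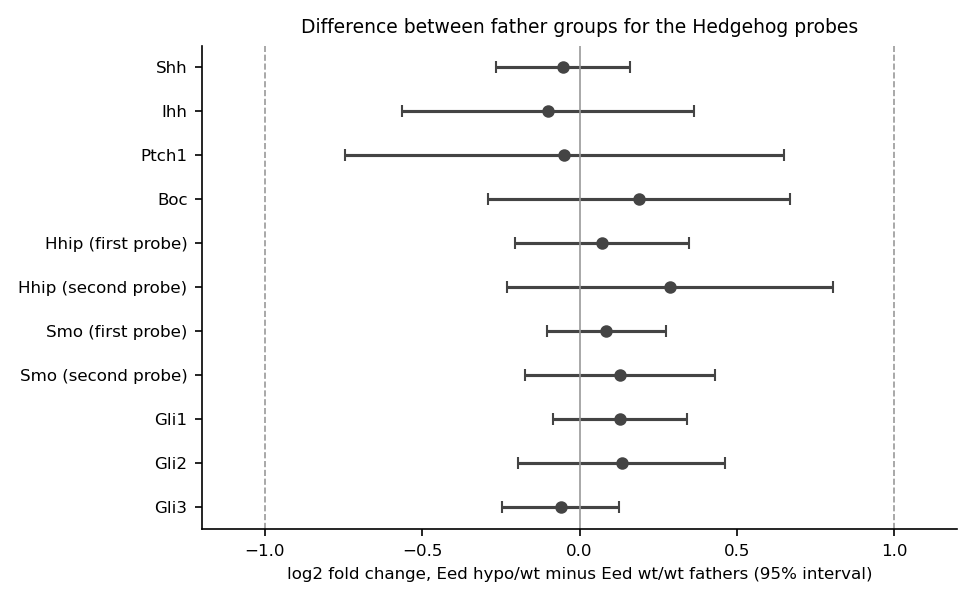
Log2 fold change of each Hedgehog probe between father groups (x axis, *Eed* hypo/wt minus *Eed* wt/wt; limma estimate and 95% interval, n = 4 per group; dashed lines at 2-fold). All 11 intervals include 0 and all lie inside the 2-fold lines, with *Ptch1* the widest at -0.75 to 0.65 and *Gli3* the narrowest at -0.25 to 0.13.

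The embryos did not move up or down together over the pathway. Replicate 3 with an *Eed* hypo/wt father was the highest of the 8 at 4 of the 9 genes and the lowest at 2. Replicate 1 with an *Eed* wt/wt father was the lowest at 3, and replicate 2 with an *Eed* hypo/wt father was the lowest at both *Ihh* and *Ptch1*. The arrays of replicate 1 with an *Eed* wt/wt father and replicate 3 with an *Eed* hypo/wt father also had the most probes well above background, 39530 and 38878.

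The other named genes whose order over the 8 embryos was most like that of a ligand or receptor were found by the summed difference in rank, over 15371 genes. For *Shh*, *Pgls* had the same order (sum 0), and *Cd302* and *Txnip* were next (sum 2 each). For *Ihh* these were *Calml4* (sum 0), *Rimbp3* (sum 2) and *Gys1* (sum 4). For *Ptch1*, *Rftn2*, *Pex5* and *Mia3* had the same order, and 104 genes had a sum of 4 or less, against 13 for *Shh* and 17 for *Ihh*. With 8 points and this many genes compared, such likeness is a description of these embryos only.

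The rest of the pathway was read in 46 further genes, of which 45 could be tested. In limma, 0 were called and 1 had an unadjusted p under 0.05, which is 2.22% of the 45, against 4.25% of the brightest probes of all 15378 named genes. The median log2 fold change of the 45 was 0.05. The gene was *Btrc*, which encodes a ubiquitin ligase subunit that acts on Gli factors, with -0.46, -0.32, -0.26 and -0.26 with *Eed* wt/wt fathers and 0.01, -0.12, -0.07 and -0.10 with *Eed* hypo/wt fathers. All 4 embryos of the second group lay above the other 4. The groups did not overlap at this 1 gene of the 45, and at 3.22% of all tested probes. The change was 0.25 (standard error 0.07, unadjusted p = 0.00988 in limma), with an adjusted p of 1.00. With arrays aligned on medians, or with the probes of a gene averaged, *Btrc* no longer had an unadjusted p under 0.05.

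Of 11 genes for ligand handling and reception, 7 were higher and 4 lower in the *Eed* hypo/wt group, with 0 at an unadjusted p under 0.05. Aligning arrays on medians lowered every log2 fold change by the same amount, for *Shh* from -0.0528 to -0.159. This split and those of the lists below therefore depend on the scaling. *Dhh*, the third ligand (0.24, standard error 0.32), and *Disp1*, which releases ligand from cells (0.19, standard error 0.10), had the largest positive values. The *Dhh* value turned to -0.09 without replicate 4 with an *Eed* wt/wt father, which measured -3.44 against -2.28 to -1.89 in the rest of its group, and the *Disp1* value was 0.11 without replicate 1 with an *Eed* wt/wt father. *Lrp2*, an endocytic receptor (-0.19, standard error 0.16), and *Scube1* (-0.16, standard error 0.10) had the largest negative values. The *Disp1* signal lay between 0.08 and 0.13 in the embryos of *Eed* hypo/wt fathers and between -0.33 and 0.09 in the others.

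Of 20 genes for signal transduction and the cilium, 14 were higher and 6 lower, with *Kif7*, a ciliary kinesin that controls the Gli factors, at 0.38 (standard error 0.19) and *Btrc* as above. *Prkaca*, the catalytic subunit of protein kinase A, which restrains the pathway, was at -0.27 (standard error 0.20). *Gpr161*, a ciliary receptor that also restrains it, was at -0.22 (standard error 0.51) and was well above background on 5 of the 8 arrays. Without replicate 4 with an *Eed* hypo/wt father the *Gpr161* value turned to 0.10, and without the 2 arrays that stood apart *Kif7* was at 0.13. These were the largest values in each direction, and of the 4 genes *Btrc* alone had an unadjusted p under 0.05.

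Of 16 response genes 15 were tested, 9 higher and 6 lower, with 0 at an unadjusted p under 0.05. *Myf5*, a muscle determination gene, was well above background on 0 arrays and was not tested. *Olig2*, a neural tube gene, was at 0.35 (standard error 0.67, detected on 7 arrays), and *Pax9*, a sclerotome gene, was at 0.12 (standard error 0.19). *Nkx3-2*, also of sclerotome, was at -0.46 (standard error 0.75, detected on 6 arrays), and *Mycn*, which promotes proliferation, was at -0.18 (standard error 0.09). *Foxa2*, a floor plate and notochord gene, was at 0.01 (standard error 0.07). The 2 highest *Nkx3-2* signals, -2.80 and -2.46, were on the 2 arrays that stood apart, and without those arrays the change was -0.73. *Pax9* turned to -0.02 without replicate 2 with an *Eed* wt/wt father. In the *Eed* hypo/wt group, replicate 4 measured -5.88 at *Olig2*, and without it the *Olig2* change was 1.05. Without replicate 1 or replicate 3 of that group the *Olig2* change was 0.02 or 0.05.

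**Figure D4:**
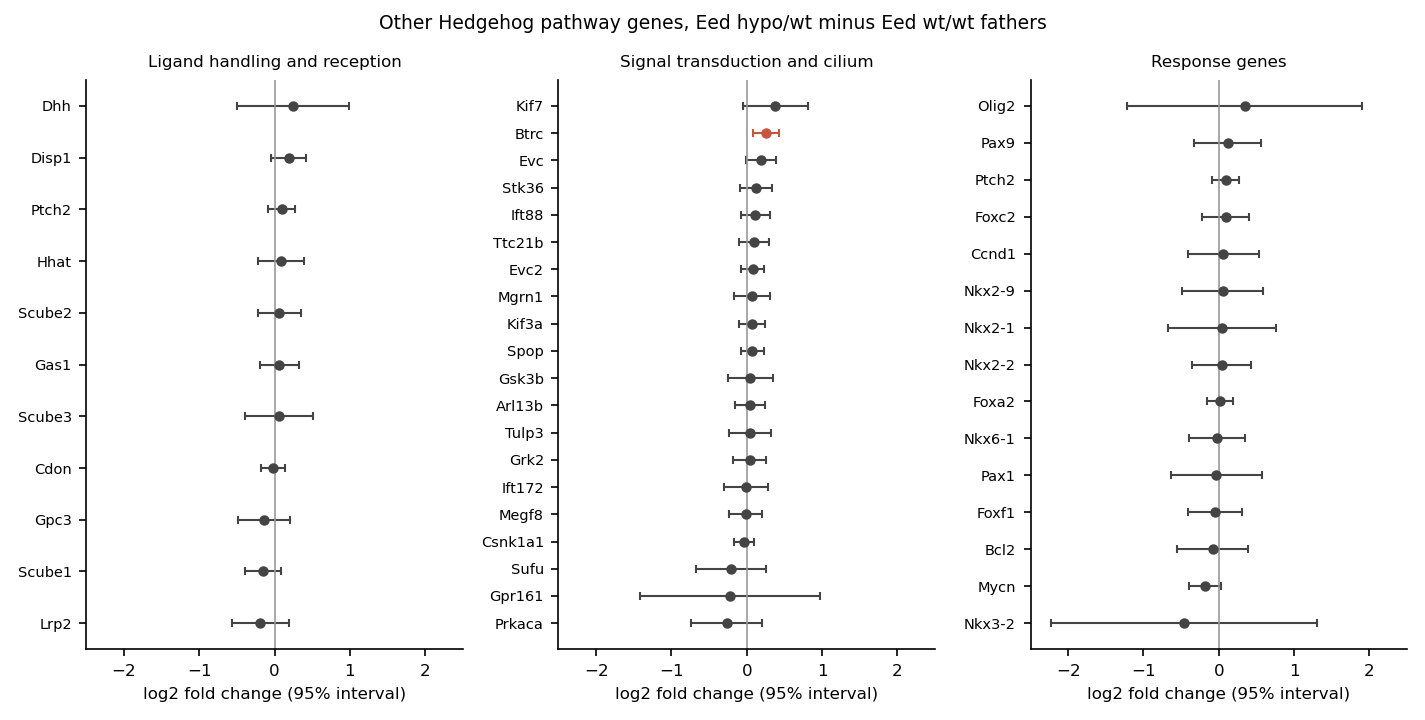
Log2 fold change (x axis, *Eed* hypo/wt minus *Eed* wt/wt fathers, limma estimate and 95% interval, n = 4 per group) of the tested genes of 3 lists of other Hedgehog pathway genes (y axis). *Btrc*, in red, is the gene with an unadjusted p under 0.05, at 0.25, and the intervals of *Olig2*, *Nkx3-2* and *Gpr161* are the widest.

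Marker lists of the other cell types in these embryos were read the same way. The summed linear signal of the node and notochord list was 11.8 to 13.3 with *Eed* wt/wt fathers and 12.1 to 13.1 with *Eed* hypo/wt fathers. For the embryo proper list it was 37.5 to 45.9 and 37.8 to 43.6, for yolk sac endoderm 517 to 737 and 634 to 667, and for primitive erythroid cells 473 to 1078 and 740 to 933. Such sums mostly follow the brightest probes. In the node and notochord list, *Foxa2* had a mean log2 signal of 2.77 with *Eed* wt/wt fathers. *Chrd*, *Foxj1* and *Nog* had -3.61, -2.98 and -2.93, so the sum says little of them. Node and notochord are also only some of the sources of *Shh*. Of these 4 lists, 0 genes had an unadjusted p under 0.05 between father groups in limma, and the ranges overlapped for each. All 7 erythroid genes were higher with *Eed* hypo/wt fathers, by 0.11 to 0.53 on the log2 scale, and 6 of the 7 were with normexp and quantile normalization. Replicate 4 with an *Eed* wt/wt father had the lowest erythroid sum, 473, and the other 7 embryos lay between 740 and 1078. The part of blood cells in the Hedgehog values was not tested. Of 9 decidua and trophoblast markers on the array 7 were tested, and *Prl8a2*, a decidual prolactin gene, was lower with *Eed* hypo/wt fathers (-2.45, standard error 0.75, unadjusted p = 0.0127 in limma, adjusted p of 1.00), with 0.72, 0.31, -2.61 and 0.54 against 1.99, 2.92, 1.56 and 2.31. It was 1 of the 7 genes at an unadjusted p under 0.05 in limma, against 4.25% of the brightest probes of all named genes. Its groups did not overlap, as at 3.22% of all tested probes. The summed signal of that list was 23.4 to 49.8 and 23.8 to 49.5. That sum mostly follows *Gcm1*, its brightest gene, with log2 signals of 3.23 to 5.16 and 3.52 to 5.17, and says little of *Prl8a2*. *Prl7d1* and *Tpbpa* were not tested, being well above background on 1 and 0 arrays.

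Between the sexes, 1 of the 11 Hedgehog probes had an unadjusted p under 0.05 in limma, with father's genotype in the fit, against 3.28% of all tested probes, and 0 were called, against 0.0332%. This was the first *Hhip* probe, with 0.27, 0.13, 0.20 and 0.06 in the 4 females and 0.26, 0.31, 0.52 and 0.48 in the 4 males. The lowest male lay just below the highest female. Males were higher by 0.23 on the log2 scale (standard error 0.09, 95% interval 0.01 to 0.45, unadjusted p = 0.0434), the adjusted p was 1.00, and the second *Hhip* probe differed by -0.01 (standard error 0.24). *Ptch1*, another inhibitor and target, had 0.34 (standard error 0.29), and the target *Gli1* had 0.12 (standard error 0.09). In the lists for ligand handling, signal transduction and response, 1 of 11, 0 of 20 and 3 of 15 tested genes had an unadjusted p under 0.05 between the sexes in limma. *Gata1*, an erythroid transcription factor, was also at an unadjusted p under 0.05 between the sexes and lower in males (male minus female -0.57 on the log2 scale). Its part in the *Hhip* value was not tested.

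The father's effect was also set between the sexes. None of the 11 probes passed the test of this difference at an unadjusted p under 0.05 in limma (2.23% of all tested probes did). The smallest p was 0.0966, for *Ihh* (adjusted p of 1.00). Both females of *Eed* hypo/wt fathers (1.98 and 2.66) lay below both females of *Eed* wt/wt fathers (2.78 and 2.75), and both males of *Eed* hypo/wt fathers (2.78 and 2.83) lay above both males of *Eed* wt/wt fathers (2.71 and 2.41). The mean differences were -0.44 in females and 0.24 in males, and they differed by 0.69 (standard error 0.34, 95% interval -0.17 to 1.54). At the first *Hhip* probe the male difference was 0.22 and the female difference -0.07, which differed by 0.29 (standard error 0.15) and did not pass the test either.

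**Figure D5:**
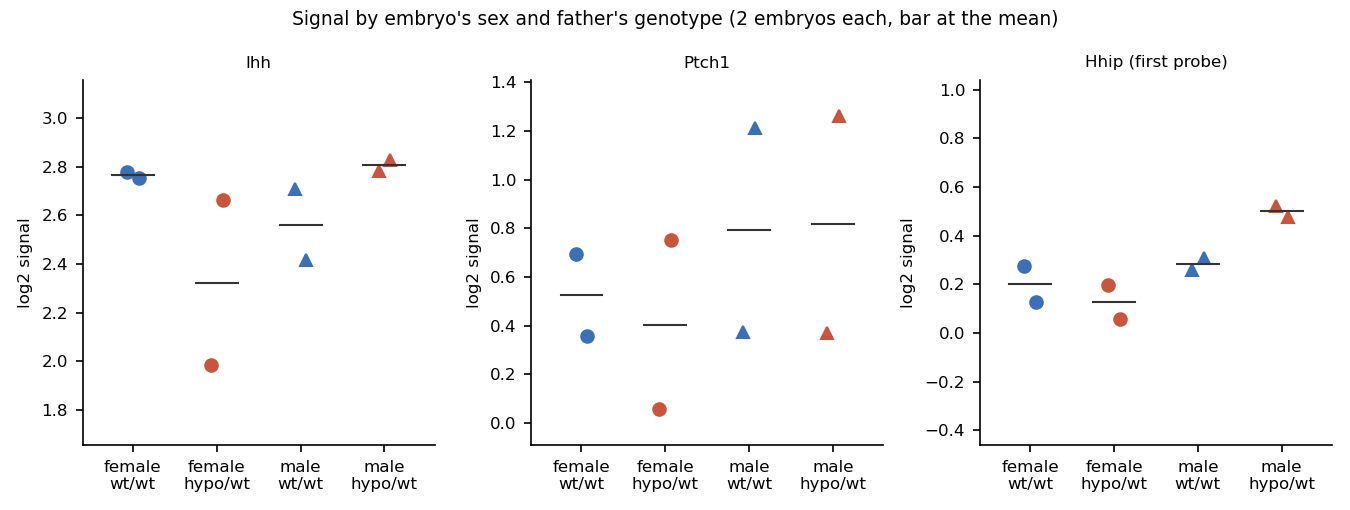
Log2 signal (y axis) of *Ihh*, *Ptch1* and the first *Hhip* probe by sex and father's genotype (x axis), with 2 embryos in each combination and a bar at their mean. For *Ihh* the bar falls from 2.76 to 2.32 in females and rises from 2.56 to 2.80 in males between *Eed* wt/wt (blue) and *Eed* hypo/wt (red) fathers, a difference that did not pass the test.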

How the data were processed

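RNA of 8 wild-type E8.5 embryos, 4 for each father's genotype, was hybridised to one-colour Agilent 8x60K arrays. Per the labels, the authors used Agilent Feature Extraction (version 11.0.1.1) to read the spots. The deposited intensity has the background subtracted and spatial trends removed, and is not scaled between arrays. The paper names a percentile shift without the percentile. The probe intervals in the deposited files are on mouse build mm9.

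Processed intensities were put on the log2 scale, and the 75th percentile of the array was subtracted. Spots marked as outliers and control spots were dropped, and repeat spots of a probe were averaged. A probe was tested where it was outside the lowest 20% by mean level and well above background on 4 or more arrays, which left 33093. Groups were compared with limma 3.58.1 (R 4.3.3, data.table version 1.17.8). A call needed at least 2-fold and an adjusted p (Benjamini-Hochberg) under 0.01. RefSeq names (assembly GRCm38.p6, also the source of the promoter sequences) were found for 27235 of the 28685 probes with such an accession. The brightest tested probe stood for a gene in lists and alternatives. Summaries and plots used Python 3.11.15 with pandas 2.3.3, numpy 2.4.6 and matplotlib 3.10.9. Of the columns of sample values in the deposited table, none was left unused.

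The members and gene lists were chosen with earlier results of these data known. The genes named are the 9 members, the 2 largest rises and 2 largest falls of each pathway list, and the 3 genes most like *Shh*, *Ihh* and *Ptch1* in rank. *Foxa2*, *Myf5* and the marker genes named beyond this were chosen after their values were seen. Alternatives were normexp (offset 50, median spot signal) followed by quantile normalization, centring on medians, quantile normalization alone, the series table in place of the scanner files, other filters, fits with sex, replicate number or embryo code, trended robust moderation, array weights, probes averaged per gene, and embryos left out. The script for the test was first tested on simulated data. A further gene is not reported here.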

Additional observations from a re-analysis of the deposited data

Results flagged for a closer look

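At the second *Hhip* probe, replicate 4 with an *Eed* wt/wt father had a log2 signal of -4.23, while the other 3 embryos of its group lay between -3.72 and -3.68. Its gap to the nearest embryo was 0.928 of the range of the group, past the limit of Dixon's test for 4 samples. Of the 22 groups of 4 examined over the 11 probes this was 1, and chance flags about 1 in 20, or 1.1 of them. The first *Hhip* probe measured 0.31 in that embryo, the highest of its group.

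At *Ihh* the effect of the father differed in sign between the sexes, by 0.686 on the log2 scale, with both females and both males on opposite sides. The test of this difference did not pass (limma, unadjusted p = 0.0966, adjusted p of 1.00), and each combination holds 2 embryos.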

How the results depend on the processing

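The 9 Hedgehog genes had an adjusted p above 0.6 in limma under every alternative run (smallest 0.605, for *Gli1*), and 0 of their probes had an unadjusted p under 0.05 between father groups in any of them. Of 189 recomputed log2 fold changes, 179 kept their direction and 10 turned. With 1 embryo left out, *Ihh* ran from -0.187 to 0.0943 and *Ptch1* from -0.267 to 0.135. These were *Shh* with array weights (0.0113), *Ihh* without heterozygous father replicate 2 (0.0943), *Ptch1* without wild-type father replicate 4 (0.135), without heterozygous father replicate 1 (0.031) and without heterozygous father replicate 2 (0.135), *Hhip* with normexp (-0.0122) and median shift (-0.0341), *Smo* with normexp (-0.0553) and median shift (-0.0205), and *Gli2* without the 2 arrays with raised receptor signal (-0.0442). The number of all probes at an unadjusted p under 0.05 between father groups, 1455, was 2626 with normexp, 479 with the median shift, 5360 without a filter on dim probes, 874 with a replicate block, 680 when the embryo code was a random block, 3056 with array weights, 2341 without the 2 arrays, and 970 to 3095 over the fits that left out 1 embryo (3095 without replicate 3 of the *Eed* hypo/wt group). Probes called between father groups went from 0 to 1 without the 2 arrays and 0 to 1 with an embryo left out, and Hedgehog probes whose groups did not overlap likewise 0 to 1 (1 without wild-type father replicate 4). Pathway genes at an unadjusted p under 0.05, 1 as reported, were 6 with normexp, 0 with the median shift, 2 without the filter, 2 with sex in the fit, 2 with trended robust moderation, 4 with array weights, 0 with probes averaged, 3 without the 2 arrays and 1 to 4 with an embryo left out. Called probes between sexes, 11 as reported, were 5 without the filter, 0 with the filter at all 8 arrays, 0 with a replicate block, 7 without the 2 arrays and 4 to 9 with an embryo left out. The *Hhip* probe at an unadjusted p under 0.05 between sexes gave 1, and 0 with normexp, the median shift, no filter, a replicate block or averaged probes, and 0 to 1 with an embryo left out. Of all tested probes, those called for a difference of the father's effect between sexes went from 0 to 4 with the median shift. The cause of these changes was not tested. Replicate numbers did not pair embryos across the groups (correlations of deviations -0.55, -0.05, -0.59 and -0.15), and the replicate block changed no call of a Hedgehog gene between father groups. The number of arrays, 4 in a group, and single spots for 10 of the 11 probes limit the precision. The intervals of the 11 probes between father groups include 0, and a difference of any size inside them was not excluded.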
